A study of Mus musculus with 21 samples.

Results

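The steroidogenic RNAs of Leydig cells were followed through purified fractions of mouse spermatogenic cells. The 8 genes *Lhcgr*, *Star*, *Cyp11a1*, *Hsd3b1*, *Hsd3b6*, *Cyp17a1*, *Hsd17b3* and *Insl3*, out of 24456 genes counted, were looked up by symbol in each of 21 libraries, and all 8 were found. They were chosen by measured values of these same libraries, because they had been lower in *H2al2* KO fractions than in wild type. Differences between the genotypes are therefore given as a description without a test, and tests are given only between fractions.

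Pachytene spermatocytes, which are in meiotic prophase, round spermatids, the haploid cells that follow, and condensing spermatids, whose nuclei compact, were each sequenced in 3 libraries labelled *H2al2* WT and 3 labelled *H2al2* KO. Spermatozoa were sequenced in 2 *H2al2* WT libraries and 1 *H2al2* KO library. The KO cells lack H2A.L.2, a testis histone H2A variant that accompanies the replacement of histones by protamines, and all groups share testis as the labelled tissue, the cell fractionation and a total RNA library depleted of ribosomal RNA. Strain and age are not given in the sources used here. The paper calls its 3 wild type round spermatid transcriptomes independent biological replicates, and whether replicates came from separate animals is not given. The p-values therefore measure the spread between these samples, which may be partly technical.

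Leydig cells lie outside the seminiferous tubules, between them, and make testosterone when luteinizing hormone binds the receptor encoded by *Lhcgr*. STAR then moves cholesterol into the mitochondria, CYP11A1 cuts it to pregnenolone, and the 3β-hydroxysteroid dehydrogenases HSD3B1 and HSD3B6, CYP17A1 and HSD17B3 turn that into testosterone. INSL3, a peptide hormone of the same cells, acts in testis descent, and its receptor RXFP2 is found on germ cells. The pathway is known from Leydig cells and not from spermatocytes or spermatids. The RNA was measured in bulk, so that fewer cells of a type and less RNA per cell cannot be told apart.

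Reads on genes ranged from 2772995 to 8201682 per library, and 3 reads, the limit that a count of 0 allows, corresponded to 0.366 to 1.08 CPM, that is counts scaled to a library total of 1000000. Intervals and this limit cover counting error only. *H2afb1*, the symbol under which the gene of H2A.L.2 is listed, was at 190 to 199 CPM in wild type round spermatids and at 19.9 to 24.6 CPM in KO round spermatids, and in the other 2 stages its KO libraries also lay below all wild type ones. The 6 spermatocyte markers summed to 1551 to 2107 CPM in pachytene libraries and to 215 to 285 CPM in round ones, and the 6 round spermatid markers were highest in the round libraries. The 6 elongating spermatid markers did not separate condensing from round libraries, at 21298 to 32199 and 19315 to 24568 CPM. They were at 25314 and 23981 CPM in wild type spermatozoa and at 9577 CPM in the KO spermatozoa library. Wild type round replicates 2 and 3 were more alike than any other replicates, with a mean chi-square of 1.06 per gene against 1.90 to 12.2. That value is close to what counting error alone gives. Counting the 2 replicates as 1 library left all 8 members called in both wild type comparisons below.

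The members lie on 6 chromosomes (RefSeq, GRCm38.p6, the same assembly as mm10). *Hsd3b6* (chr3:98805504-98814443) and *Hsd3b1* (chr3:98842356-98859794) are neighbours on the minus strand of chromosome 3, *Star* (chr8:25808474-25815982) and *Insl3* (chr8:71689252-71690577) are on the plus strand of chromosome 8, and *Cyp11a1* (chr9:57998024-58027031) is on the plus strand. *Cyp17a1* (chr19:46667165-46673000), *Hsd17b3* (chr13:64058274-64089262) and *Lhcgr* (chr17:88716384-88792059) are on the minus strand. *Insl3* sits inside *Jak3* on the same strand, and 404 of its 623 exon bases, or 64.85%, are also exon of *Jak3* in the GENCODE M21 basic annotation, so that reads there may have been left uncounted as ambiguous. The transcripts of *Hsd3b1* and *Hsd3b6* are identical at 79.68% of 1791 aligned bases. Of the 75-base windows of *Hsd3b6*, 7.93% also occur in *Hsd3b2* or *Hsd3b3*, where a read would not have been counted.

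The 250 bases upstream of the RefSeq start sites were searched on both strands, because the members moved together. RefSeq start site windows (GRCm38.p6) were matched for 6 members, with 2 windows for *Cyp11a1*, and *Star* and *Cyp17a1* had no entry. The letters AGATAA, a site form of the GATA factors, occurred in the windows of both 3β-hydroxysteroid dehydrogenase genes, and these are shown with the match in capitals, each from 5′ to 3′ on the gene's minus strand (*Hsd3b6*, chr3:98814444-98814693; *Hsd3b1*, chr3:98859795-98860044). The match lies at bases -31 to -26 from the start in *Hsd3b6* and, as the reverse complement, at -134 to -129 in *Hsd3b1*.
Hsd3b6: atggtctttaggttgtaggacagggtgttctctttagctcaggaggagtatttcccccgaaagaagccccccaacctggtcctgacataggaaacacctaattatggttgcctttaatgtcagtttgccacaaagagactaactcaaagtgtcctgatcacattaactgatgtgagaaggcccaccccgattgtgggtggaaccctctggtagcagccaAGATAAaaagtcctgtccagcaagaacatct
Hsd3b1: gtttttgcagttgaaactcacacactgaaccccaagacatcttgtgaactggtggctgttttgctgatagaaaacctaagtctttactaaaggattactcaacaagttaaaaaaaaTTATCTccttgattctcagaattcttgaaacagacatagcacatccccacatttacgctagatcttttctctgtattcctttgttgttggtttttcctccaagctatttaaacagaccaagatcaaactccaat

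Of 32851 windows of all genes, 9.99% held AGATAA or its reverse complement. The half-site CAAGGNCA of the NR5A receptors was in 5.53% of all windows, the half-site AAGGTCA, which overlaps with it, in 4.08%, and TATAAA in 12.4%, and these letters were in 0 of the 7 windows of members. A match is a description of the letters only.

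In wild type, the RNA of the 8 members was high in pachytene spermatocytes, low in round spermatids and high again in condensing spermatids. Summed over the members, the 3 wild type pachytene libraries held 85.1, 162 and 187 CPM, the 3 round libraries 10.95, 13.5 and 14.6 CPM, and the 3 condensing libraries 201, 158 and 231 CPM. Every round library was below every pachytene and condensing library, and the pachytene and condensing ranges overlapped. The sum was 145 ± 53.0 CPM (SD, n = 3) in pachytene, 13.03 ± 1.88 in round and 197 ± 36.7 in condensing. KO libraries had the same order, with 123, 57.6 and 27.2 CPM in pachytene, 10.7, 7.45 and 6.36 CPM in round and 139, 89.9 and 96.0 CPM in condensing spermatids. In pachytene, KO replicate 1 stood above the other KO replicates and above wild type replicate 1.

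**Figure D1:**
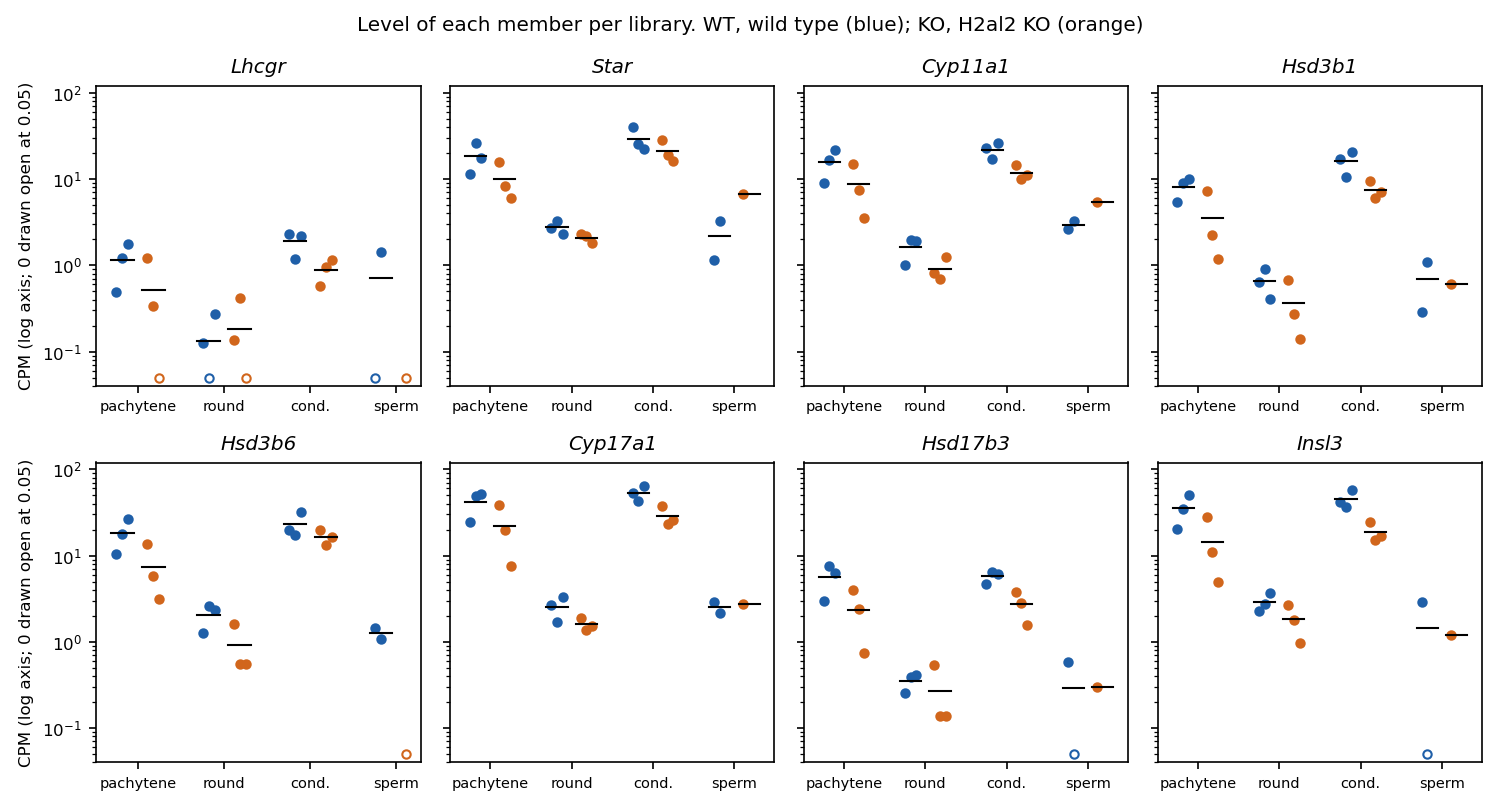
Level of each member in every library, in CPM on a log axis, by fraction (cond., condensing spermatids; sperm, spermatozoa) and genotype, with 1 point per library, a bar at the group mean and open points at the bottom for libraries without a read. In wild type all 3 round libraries lie below all pachytene and condensing libraries for 8 of 8 members.

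From pachytene spermatocytes to wild type round spermatids, 8 of 8 members were lower at an adjusted p under 0.05 (edgeR's quasi-likelihood test, Benjamini-Hochberg adjusted over 14011 genes), where 35.9% of all genes tested were lower and 34.4% higher. The median log2 fold change of the members was -3.23 (range -3.84 to -2.55), and that of all genes was -0.02. From round to condensing spermatids, 8 of 8 members were higher, against 28.3% of all genes higher and 21.8% lower, with a median log2 fold change of 3.79 (range 3.34 to 4.53) against 0.04 for all genes. Both comparisons share the round libraries, and the members had been chosen on these same libraries by another contrast. Only 3 members, *Star*, *Cyp17a1* and *Insl3*, reached the low-count filter's limit of 1.365 CPM in each of the round libraries, and the other 5 entered the fit through the fractions where they were higher. Without the filter 8 of 8 were called in both comparisons as well.

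The same held within the KO libraries. Of the 7 members tested there, 7 were lower in round than in pachytene, against 38.4% of 13877 genes, with a median log2 fold change of -2.84 (range -3.59 to -2.07). From round to condensing, 7 of 7 were higher, against 29.7% of all genes, with a median of 3.66 (range 3.22 to 4.29). *Lhcgr* did not pass the filter in KO, and only *Star* reached the limit of 1.429 CPM in each KO round library. Whether the stage changes differ between the genotypes was not tested.

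**Figure D2:**
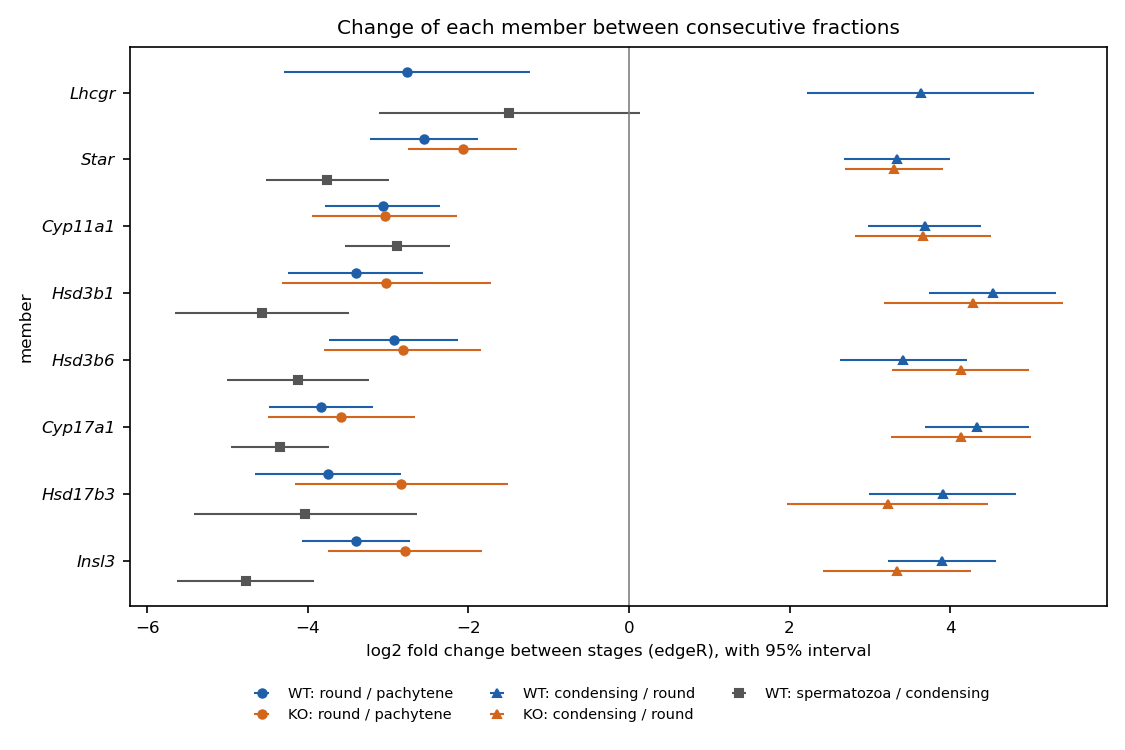
Log2 fold change of each member between consecutive fractions in wild type (blue, and grey for spermatozoa) and KO (orange), with 95% intervals from edgeR. Points left of 0 were lower in the later fraction, and *Lhcgr* has no KO value because it was not tested there.

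*Lhcgr*, the receptor for luteinizing hormone, had the fewest reads, 100 over 21 libraries, and 10 libraries were at or under 3 reads. It had 4, 10 and 11 reads in wild type pachytene libraries (0.496, 1.22 and 1.77 CPM), 1, 0 and 2 reads in round and 15, 8 and 13 reads in condensing libraries (2.31, 1.20 and 2.21 CPM). The round libraries lay below the pachytene and condensing ones, and the change was -2.77 ± 0.78 (log2, SE; adjusted p = 0.00644) into round and 3.63 ± 0.72 (adjusted p = 0.00124) out of it. With 3 reads over the round group, the fitted value depends on the prior count, and pooled CPM gave a ratio of pachytene to round of 8.48, with a counting interval from 2.59 to 43.9. In KO, *Lhcgr* had 7, 2 and 0 reads in pachytene, 1, 3 and 0 in round and 4, 7 and 8 in condensing libraries, and the pachytene and round ranges overlapped.

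*Star*, which moves cholesterol to the inner mitochondrial membrane, stood at 11.5, 26.2 and 17.6 CPM in wild type pachytene, 2.67, 3.26 and 2.32 CPM in round and 40.1, 25.3 and 22.3 CPM in condensing libraries. Its change was the smallest of the 8 in both wild type comparisons, -2.55 ± 0.35 (log2, SE; adjusted p = 2.10e-05) and 3.34 ± 0.34 (adjusted p = 9.26e-06). KO libraries gave 15.9, 8.38 and 5.97 CPM in pachytene, 2.30, 2.21 and 1.80 CPM in round and 28.4, 18.8 and 16.2 CPM in condensing spermatids. The round libraries of either genotype lay below its pachytene and condensing ones, and in KO the condensing libraries were all above the pachytene ones.

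*Cyp11a1* encodes the side-chain cleavage enzyme, the first step from cholesterol to steroids. Its wild type levels were 9.05, 16.6 and 21.9 CPM in pachytene, 1.02, 1.95 and 1.91 CPM in round and 22.7, 17.2 and 25.9 CPM in condensing libraries. It fell by 3.07 ± 0.36 on the log2 scale into round spermatids (adjusted p = 6.25e-06) and rose by 3.68 ± 0.36 into condensing spermatids (adjusted p = 6.43e-06). In KO the levels were 15.0, 7.52 and 3.58 CPM in pachytene, 0.812, 0.690 and 1.24 CPM in round and 14.7, 10.00 and 11.01 CPM in condensing libraries, the round ones again below the others without overlap.

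*Hsd3b1* and *Hsd3b6* encode the 3β-hydroxysteroid dehydrogenases of the mouse testis. *Hsd3b1* had 5.46, 9.02 and 9.99 CPM in wild type pachytene, 0.637, 0.912 and 0.409 CPM in round and 17.3, 10.5 and 20.8 CPM in condensing libraries. It changed by -3.40 ± 0.43 (log2, SE; adjusted p = 1.11e-05) into round and by 4.53 ± 0.40 (adjusted p = 3.47e-06) into condensing spermatids, the largest rise among the 8, from 15 reads over the round group. It was the member whose wild type condensing libraries were all above the pachytene libraries. In KO pachytene it read 7.24, 2.22 and 1.19 CPM, in round 0.677, 0.276 and 0.138 CPM and in condensing 9.46, 6.08 and 7.15 CPM, so replicate 1 was highest in each fraction.

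*Hsd3b6* had 10.3, 17.7 and 26.9 CPM in wild type pachytene, 1.27, 2.60 and 2.32 CPM in round and 19.7, 17.4 and 32.2 CPM in condensing libraries. Its changes were -2.93 ± 0.41 (log2, SE; adjusted p = 2.71e-05) and 3.42 ± 0.40 (adjusted p = 3.11e-05). KO levels were 13.5, 5.81 and 3.14 CPM in pachytene, 1.62, 0.552 and 0.553 CPM in round and 19.9, 13.1 and 16.3 CPM in condensing spermatids. Of the other members of the family on the list, *Hsd3b2*, *Hsd3b3*, *Hsd3b4*, *Hsd3b5* and *Hsd3b7* were too low to be tested in these comparisons.

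*Cyp17a1*, the 17α-hydroxylase and 17,20-lyase of androgen synthesis, had the most reads, 3050 over 21 libraries. It read 24.7, 49.3 and 51.6 CPM in wild type pachytene, 2.67, 1.69 and 3.28 CPM in round and 52.6, 43.3 and 64.7 CPM in condensing libraries. It fell by 3.84 ± 0.33 on the log2 scale into round spermatids (adjusted p = 4.27e-07), the largest fall of the 8, and rose by 4.33 ± 0.33 into condensing spermatids (adjusted p = 1.12e-06). In KO it read 38.5, 20.0 and 7.62 CPM in pachytene, 1.90, 1.38 and 1.52 CPM in round and 37.4, 23.0 and 25.9 CPM in condensing libraries, and the round libraries lay below the pachytene and condensing ones.

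*Hsd17b3* encodes the enzyme that makes testosterone from androstenedione. Its wild type levels were 2.98, 7.56 and 6.28 CPM in pachytene, 0.255, 0.391 and 0.409 CPM in round, from 2, 3 and 3 reads, and 4.63, 6.44 and 6.13 CPM in condensing libraries. The changes were -3.75 ± 0.47 (log2, SE; adjusted p = 9.45e-06) and 3.91 ± 0.47 (adjusted p = 3.35e-05), and the pachytene and condensing ranges overlapped. It reached the filter's limit in 0 of 3 round libraries and entered the fit through the other fractions. With 8 reads over the round group, the fitted values depend on the prior count. Pooled CPM gave ratios to round of 15.9 for pachytene (counting interval 7.82 to 37.6) and 16.4 for condensing (8.02 to 38.9). In KO it had 3.97, 2.39 and 0.747 CPM in pachytene, 0.541, 0.138 and 0.138 CPM in round and 3.78, 2.84 and 1.57 CPM in condensing libraries.

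*Insl3*, the peptide hormone, read 20.6, 34.6 and 50.8 CPM in wild type pachytene, 2.29, 2.73 and 3.69 CPM in round and 41.5, 36.7 and 57.0 CPM in condensing libraries. It fell by 3.40 ± 0.34 on the log2 scale (adjusted p = 1.49e-06) and then rose by 3.90 ± 0.34 (adjusted p = 3.14e-06). KO libraries had 27.8, 10.9 and 4.93 CPM in pachytene, 2.71, 1.79 and 0.968 CPM in round and 24.6, 15.1 and 16.9 CPM in condensing spermatids. The hormone gene thus moved over the fractions in the same order as the enzymes, with the round libraries of both genotypes below their pachytene and condensing ones.

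Spermatozoa were low in the members as well. The sum was 11.9 and 12.3 CPM in the 2 wild type libraries and 17.0 CPM (exact binomial 95% interval 12.8 to 22.1) in the KO library. Against wild type condensing spermatids, 7 of 8 members were lower in wild type spermatozoa (edgeR, adjusted over 15116 genes), where 35.8% of all genes were lower, with a median log2 fold change of -4.08. *Insl3* had 10 and 0 reads and a change of -4.77 ± 0.44 (log2, SE; adjusted p = 3.42e-09), which was -3.89 without wild type spermatozoa replicate 2. Without replicate 1 the library that remains holds 0 reads of *Insl3*, and the fitted -10.95 depends on the prior count and is no bound. *Cyp11a1* had 9 reads in each library, 2.61 and 3.25 CPM, and the smallest change among the 7, -2.88 ± 0.34 (adjusted p = 1.27e-07). *Hsd17b3* had 2 and 0 reads, and pooled CPM gave a ratio of condensing spermatids to spermatozoa of 17.8, with a counting interval from 4.82 to 149, while its fitted log2 change was -4.03, or -3.20 without replicate 2. *Cyp11a1* and *Cyp17a1* were the members that reached the filter's limit of 1.702 CPM in both spermatozoa libraries. *Lhcgr*, with 0 and 4 reads, did not pass the test at -1.49 ± 0.83 (adjusted p = 0.113), a value that was -0.39 without replicate 1. The ranges of wild type round spermatids and spermatozoa overlapped for 7 of 8 members, the exception being *Cyp11a1*, whose 2 spermatozoa libraries lay above its 3 round ones. In the single KO library *Star* had 22 reads, *Cyp11a1* 18, *Cyp17a1* 9, *Insl3* 4, *Hsd3b1* 2, *Hsd17b3* 1, and *Hsd3b6* and *Lhcgr* 0, which allows up to 0.910 CPM.

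Levels were compared between members per kilobase of exon, using the GENCODE M21 basic annotation. In wild type pachytene spermatocytes the order of the mean levels in CPM per kilobase was *Insl3* at 56.7, *Cyp17a1* at 17.3, *Hsd3b6* at 10.2, *Cyp11a1* at 7.48, *Star* at 4.56, *Hsd3b1* at 4.40, *Hsd17b3* at 4.24 and *Lhcgr* at 0.170. In wild type condensing spermatids it was *Insl3* at 72.3, *Cyp17a1* at 22.1, *Hsd3b6* at 12.8, *Cyp11a1* at 10.3, *Hsd3b1* at 8.72, *Star* at 7.23, *Hsd17b3* at 4.33 and *Lhcgr* at 0.279. The hormone gene led and the receptor gene was last in both fractions. The value of *Insl3* rests on all its exon bases and would be higher if the bases shared with *Jak3* had not been counted. Between pachytene and condensing spermatids the ranges of 7 of 8 members overlapped in wild type, although the mean was higher in condensing for 8 of 8.

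The mixture of the members was described by the share of each in the reads of the 8 genes, with exact binomial 95% intervals over both genotypes. *Cyp17a1* took 29.8% (28.5 to 31.2) in pachytene and 26.9% (25.8 to 28.1) in condensing spermatids, *Insl3* 23.2% (22.0 to 24.5) and 20.8% (19.8 to 21.8), and *Cyp11a1* 11.3% (10.4 to 12.3) and 11.1% (10.3 to 11.9). *Star* took 13.6% (12.6 to 14.6) in pachytene and 16.8% (15.8 to 17.7) in condensing spermatids, and *Hsd3b1* 5.51% (4.86 to 6.23) and 7.73% (7.06 to 8.43). For *Cyp11a1* the interval of every pachytene, round and condensing library included the 11.2% pooled over pachytene and condensing libraries. The pool holds those libraries themselves. In round libraries, with 57 reads in all, its share ran from 7.59% to 19.6%, so inclusion does not show a constant share. In round spermatids the intervals of *Star* and *Cyp17a1* lay apart from those of both other fractions. *Star* took 22.9% (19.2 to 26.9) of 476 reads there and was above its pooled share of 15.4% in 4 of 6 round libraries. It was also above that share in 3 of 6 condensing libraries and in 1 of 6 pachytene libraries, and below it in 1 of each. *Cyp17a1* took 19.5% (16.1 to 23.4) and was below its pooled share of 28.2% in 2 of 6 round libraries. In spermatozoa *Cyp11a1* took 27.5% (20.0 to 36.0) of 131 reads and *Insl3* 10.7% (5.97 to 17.3). Within condensing spermatids the reads pooled per genotype gave different shares for some members, which is described without a test. *Insl3* took 22.9% (21.5 to 24.2) in wild type and 17.4% (15.9 to 19.0) in KO. *Star* took 15.1% (13.9 to 16.3) and 19.5% (17.9 to 21.2), and *Hsd3b6* 11.7% (10.6 to 12.7) and 15.2% (13.7 to 16.7). By single library the shares of *Star* overlapped, at 9.65% to 20.0% in wild type and 16.8% to 20.9% in KO. Those of *Insl3* (20.7% to 24.7% and 16.8% to 17.7%) and *Hsd3b6* (9.83% to 13.9% and 14.4% to 17.0%) did not overlap. The intervals of the other members overlapped between genotypes there. All these intervals cover counting error and not the spread between libraries.

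**Figure D3:**
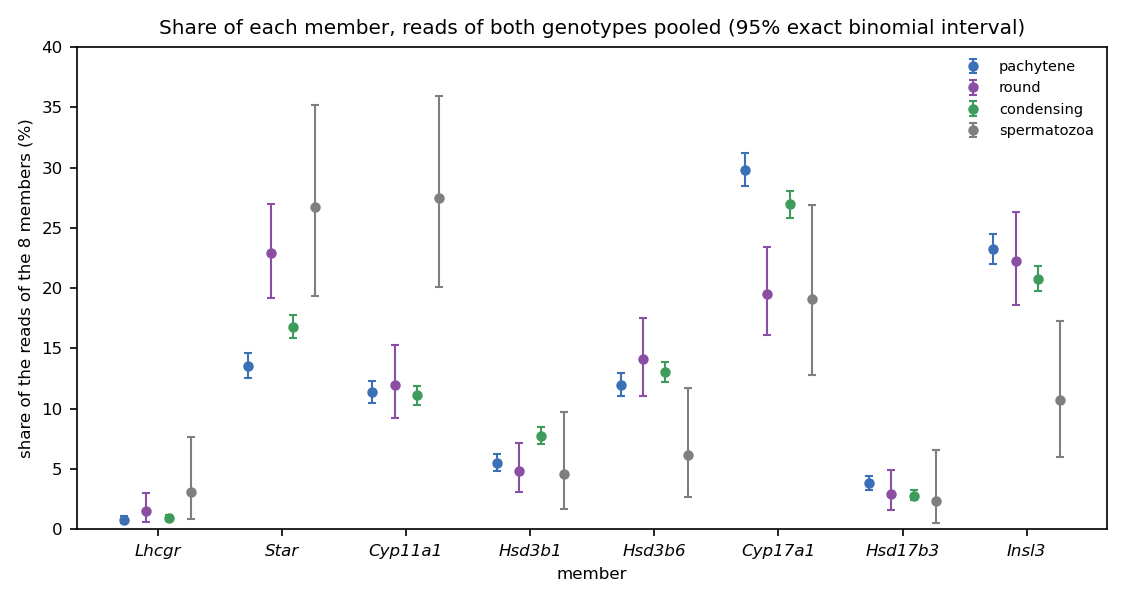
Share of each member in the reads of the 8 genes (%), with the libraries of both genotypes pooled per fraction and 95% exact binomial intervals. *Star* is at 13.6% in pachytene and 22.9% in round spermatids, *Cyp17a1* at 29.8% and 19.5%, and *Cyp11a1* at 11.3% and 12.0%.

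Across the 21 libraries each member was also close to the mean of the other members, on the scale log2(CPM + 0.5). Pearson's r was 0.985 for *Hsd3b1*, 0.984 for *Cyp17a1* and 0.780 for *Lhcgr*, the lowest, where the median gene was at 0.0747. These values are descriptions over libraries that share fractions and depth. After the mean of each fraction and genotype was subtracted in 18 libraries, r was 0.9498 for *Insl3*, 0.912 for *Cyp17a1* and 0.719 for *Star*, the lowest, against a median of 0.0886. The deviations of the members thus went together over the pooled groups. They did not in each group: among wild type condensing replicates, *Star* was lowest in replicate 3 (22.3 CPM), where *Cyp17a1* was highest (64.7 CPM).

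Among the genes outside the 8 whose pattern was most like theirs over the 21 libraries, of 16547 genes with at least 50 reads, were *Bhmt*, *Akr1cl*, *Agt*, *Fabp3*, *Vcam1*, *Npr1*, *Aldh1l1*, *Klk1b21* and *Neo1*, with r from 0.991 for *Bhmt* to 0.899 for *Neo1*. By deviations from the group means in 18 libraries they were *Bhmt*, *Hadh*, *Sft2d2*, *Tmem164*, *Ptgds*, *Gstm1*, *Ugt1a6a*, *Aldh1a1*, *Aldh1l1* and *Pcolce*, with r from 0.968 to 0.910. *Bhmt*, which encodes a methyltransferase of betaine and homocysteine, led both.

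The rest of the pathway was not as uniform. Beside the wild type counts of this and the following lists stand the shares over all genes tested. These were 34.4% higher and 35.9% lower in round than in pachytene, and 28.3% higher and 21.8% lower in condensing than in round spermatids. Among 12 other Leydig cell markers, 9 were tested in wild type, and 5 were lower and 3 higher in round than in pachytene spermatocytes, while 8 were higher in condensing than in round spermatids. Of these 9, 6 reached the filter's limit of 1.365 CPM in every wild type pachytene library, 6 in every round one and 9 in every condensing one. Those short of it entered the fit through another fraction. *Ptgds*, a prostaglandin D synthase, fell by 2.71 on the log2 scale (adjusted p = 1.17e-05) and *Aldh1a1*, a retinaldehyde dehydrogenase, by 1.73 (adjusted p = 0.000752). *Vcam1*, an adhesion molecule, fell by 1.57 (adjusted p = 0.00113). In contrast *Inha*, the inhibin α subunit that Sertoli cells also make, rose by 1.61 (adjusted p = 9.10e-05), *Pdgfra* by 1.42 (adjusted p = 0.00102) and *Igf1* by 2.78 (adjusted p = 4.26e-05). In wild type spermatozoa *Ptgds* stood at 474 ± 5.43 CPM and *Aldh1a1* at 463 ± 49.0 CPM (SD, n = 2), above any fraction of spermatids, and in the KO spermatozoa library at 58.5 and 101 CPM. The sum of the 8 epididymis epithelium markers also stood higher in wild type spermatozoa. It was 1515 and 1660 CPM there, against 208 to 290 CPM in wild type condensing spermatids, and 529 CPM in the KO spermatozoa library. Only 4 of the 8 had reads in each wild type spermatozoa library. Of 4 tested against condensing spermatids, 2 were higher and 1 lower. The part of epididymis epithelium in the levels of *Ptgds* and *Aldh1a1* was not tested.

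Of 5 redox partners of the steroid P450 enzymes, 4 were lower in round than in pachytene spermatocytes, among them *Fdx1*, the ferredoxin that passes electrons to CYP11A1, at -1.04 (log2; adjusted p = 1.05e-05), *Cyb5a* at -2.01 (adjusted p = 1.87e-05) and *Cyb5r3* at -1.39 (adjusted p = 6.85e-07). In condensing against round spermatids, 4 were higher and 1 lower. *Fdx1* was still at 14.1 ± 0.954 CPM (SD, n = 3) in wild type round spermatids. Of 17 other steroid enzymes 6 were tested, and 4 were lower and 1 higher in round spermatids. *Hsd17b4*, an enzyme of peroxisomal fatty acid oxidation, was at -1.17 (adjusted p = 1.54e-06), *Srd5a1*, a steroid 5α-reductase, at -2.06 (adjusted p = 2.08e-05) and *Srd5a3* at -1.18 (adjusted p = 0.00132), while *Cyp19a1*, aromatase, was higher at 1.12 (adjusted p = 0.0130). From round to condensing spermatids, 2 of the 6 were higher. Of the 6, 4 reached the filter's limit of 1.365 CPM in every wild type pachytene library, 4 in every round one and 6 in every condensing one.

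Genes of cholesterol supply were called in both directions, as were all genes tested, 34.4% of them higher and 35.9% lower in round than in pachytene. Of 13, 4 were higher in round than in pachytene spermatocytes, with *Lipe*, hormone-sensitive lipase, at 2.09 (log2; adjusted p = 1.25e-06) and *Sqle*, of cholesterol synthesis, at 1.03 (adjusted p = 9.52e-06). Lower were 3, among them *Soat1* at -1.02 (adjusted p = 4.33e-06) and *Stard4* at -1.70 (adjusted p = 7.79e-05). From round to condensing spermatids 7 were higher and 2 lower, against 28.3% and 21.8% of all genes. Of 10 genes of luteinizing hormone signalling and its response, 2 were higher and 1 lower in round spermatids. *Nr4a1* rose by 2.14 (adjusted p = 1.55e-06), *Crem*, a cAMP response factor that spermatids need, by 0.90 (adjusted p = 8.35e-06), and the prolactin receptor gene *Prlr* fell by 1.69 (adjusted p = 0.00638). *Prkar1a*, with *Crem* the most abundant of the list, was at 0.26 (adjusted p = 0.0867). Into condensing spermatids 3 of the 10 were higher and 5 lower.

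Of 10 steroidogenic transcription factors 6 were tested in wild type, 2 higher and 1 lower in round than in pachytene spermatocytes, and 4 higher in condensing than in round spermatids. Of these 6, 4 reached the filter's limit of 1.365 CPM in every wild type pachytene library, 2 in every round one and 6 in every condensing one. Those short of it entered the fit through another fraction, and their count supports nothing further. *Gata6* rose by 1.42 (log2; adjusted p = 0.000397) and *Nr0b1* by 1.69 (adjusted p = 0.00856) into round spermatids, and *Nr2f2* fell by 1.20 (adjusted p = 0.000835). *Cebpb* was too low to be tested there and was at 46.1 ± 2.10 CPM (SD, n = 2) in wild type spermatozoa. *Nr5a1*, the steroidogenic factor that acts in Leydig and Sertoli cells, is named outside the rule after its values were seen. It was at 2.65 ± 0.566 CPM (SD, n = 3) in pachytene, 1.65 ± 0.672 in round and 14.9 ± 2.97 in condensing spermatids, with changes of -0.49 (adjusted p = 0.200) and 3.10 (adjusted p = 3.59e-06).

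Of 14 Sertoli markers 13 were tested, and 5 were higher in round than in pachytene, led by *Aard*, *Amhr2* and *Cldn11*, while 13 were higher in condensing spermatids. Of these 13, 4 reached the filter's limit of 1.365 CPM in every wild type pachytene library, 6 in every round one and 13 in every condensing one, so those short of it in both earlier fractions entered the fit through the condensing fraction. *Clu*, the most abundant of them, was at 25.3 ± 3.77 CPM (SD, n = 3) in pachytene, 23.5 ± 5.20 in round and 290 ± 33.0 in condensing wild type libraries. Their sum ranged from 23.6 to 60.3 CPM in pachytene, 48.1 to 86.6 in round and 542 to 848 in condensing libraries. Of 10 macrophage markers 8 were tested, and 8 were higher in round than in pachytene, among them *Cd74*, *Mrc1* and *Csf1r*, and 1 in condensing than in round. Of these 8, 0 reached that limit in every wild type pachytene library, 7 in every round one and 8 in every condensing one, so they entered the fit through the fractions where they are higher and their count supports nothing further. Their sum ranged from 3.79 to 6.95 CPM in pachytene, 24.0 to 42.4 in round, 41.5 to 89.6 in condensing libraries and 1649 to 1690 in wild type spermatozoa, with 5630 in the KO spermatozoa library. The part of carried-over cells in the levels of the members was not tested.

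The other marker lists were mixed. Of 7 peritubular myoid markers 6 were tested, 1 higher and 2 lower in round than in pachytene, and 4 higher in condensing. Of 7 endothelial markers 6 were tested, 3 higher and 1 lower in round, and 5 higher in condensing. The limit of 1.365 CPM was reached in every wild type pachytene, round and condensing library by 3, 4 and 6 of the endothelial markers tested. For the peritubular myoid markers it was 4, 5 and 6. Those short of it entered the fit through another fraction. Red blood cell markers summed to at most 1.95 CPM in pachytene and round libraries and to 19.1 to 25.8 CPM in condensing ones. Epididymis epithelium markers had 1 of 2 tested genes higher in round spermatids. Of 6 spermatogonium markers 4 were higher in condensing than in round spermatids, of 6 spermatocyte markers 4 were lower and 1 higher in round than in pachytene, and of 6 elongating spermatid markers 6 were higher in round.

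**Figure D4:**
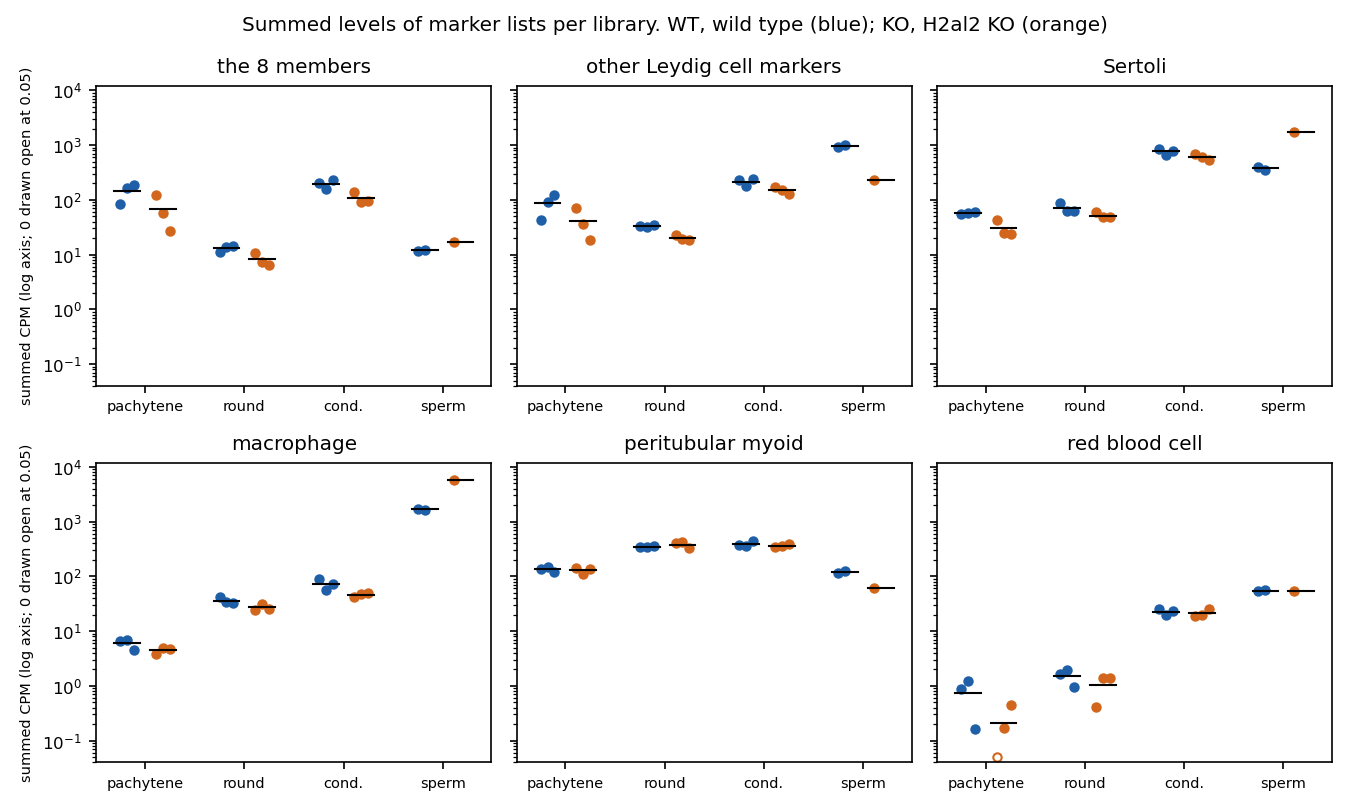
Summed CPM of the 8 members and of 5 marker lists in every library, on a log axis, by fraction and genotype, with 1 point per library and a bar at the group mean. The members drop in round spermatids, whereas Sertoli markers are at 48.1 to 86.6 CPM there and macrophage markers are above their pachytene range.

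Between the genotypes, the members were lower on average in KO at each stage, which is the contrast they were chosen by and is described without a test. In pachytene spermatocytes the TMM-scaled sum (trimmed mean of M values) was 84.9, 155 and 189 CPM in wild type and 120, 59.9 and 27.7 CPM in KO, so that KO replicate 1 lay above wild type replicate 1 and the groups overlapped. The KO mean was 48.4% of the wild type mean, a log2 ratio of -1.05, with means of 69.2 ± 46.8 and 143 ± 53.1 CPM (SD, n = 3). All 8 members had the lower mean in KO, at 41.1% to 55.7% of wild type, and for 0 of 8 were the 3 KO libraries all below the 3 wild type libraries, where 5.28% of 12236 genes were. The pachytene ratio depended on single libraries. It was -1.74 on the log2 scale without KO replicate 1 and -0.67 without KO replicate 3.

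In round spermatids the scaled sums were 10.9, 13.7 and 14.7 CPM in wild type and 10.4, 7.64 and 6.31 CPM in KO, without overlap but with the highest KO library close to the lowest wild type one. The KO mean was 61.9% of wild type (log2 ratio -0.69). The mean was lower in KO for 7 of 8 members, the exception being *Lhcgr* with 4 reads in KO and 3 in wild type. Only 4 members passed the low-count filter, and 1 of 8, *Star*, had no overlap, against 5.53% of 12804 genes.

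In condensing spermatids the scaled sums were 197, 151 and 240 CPM in wild type and 135, 90.8 and 101 CPM in KO, and the groups did not overlap. The KO mean was 55.6% of wild type (log2 ratio -0.85), and the mean was lower in KO for 8 of 8 members. For 5 of 8, *Cyp11a1*, *Hsd3b1*, *Cyp17a1*, *Hsd17b3* and *Insl3*, all KO libraries were below all wild type libraries, where 6.04% of 13734 genes were. *Insl3* was the lowest relative to wild type at 42.2%, and *Star* at 73.4% and *Hsd3b6* at 71.7% were nearest to it and overlapped. The median log2 ratio of all genes was between -0.01 and 0.01 at each stage.

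**Figure D5:**
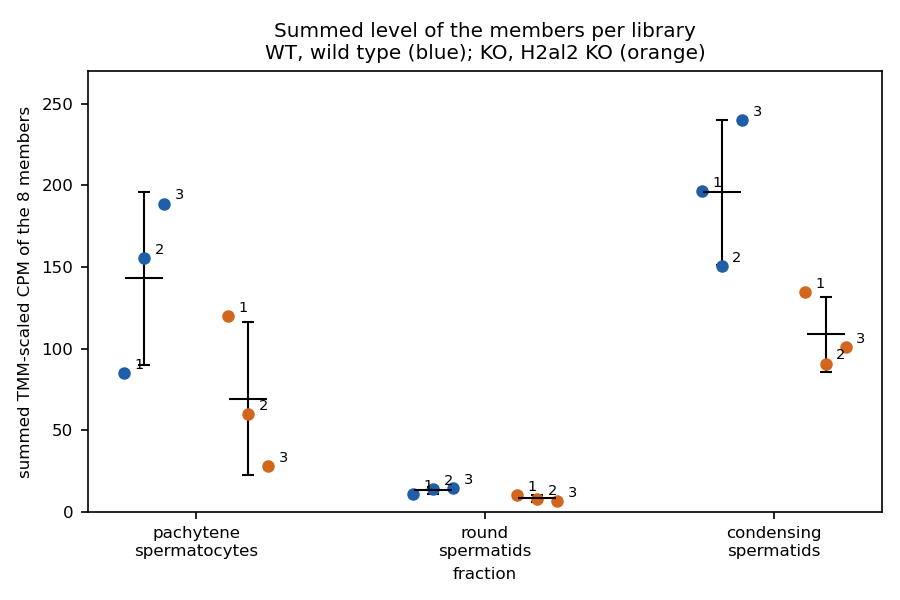
Summed TMM-scaled CPM of the 8 members in each library (points, with the replicate number), with the mean and SD of 3 libraries, by fraction and genotype. KO replicate 1 lies above wild type replicate 1 in pachytene spermatocytes, and the groups are apart in round and condensing spermatids.

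The 12 other Leydig cell markers summed in KO to 49.0% of wild type in pachytene, 60.0% in round and 72.4% in condensing spermatids. Sertoli markers were at 54.0%, 72.7% and 81.0% of wild type, and macrophage markers at 75.8%, 74.7% and 65.3%. Genes that passed the filter and had all KO libraries below all wild type ones were also counted. They were 0 of 7 other Leydig markers in pachytene, 3 of 6 in round and 5 of 9 in condensing spermatids. For Sertoli markers they were 2 of 5, 3 of 8 and 2 of 13. For macrophage markers they were 4 of 7 in round and 4 of 8 in condensing, with 0 passing in pachytene. The shares over all genes were 5.28%, 5.53% and 6.04%. Within pachytene the other Leydig markers followed the same libraries, with 43.0, 91.7 and 124 CPM in wild type and 69.7, 36.9 and 18.8 CPM in KO, whereas Sertoli markers were at 55.7, 56.6 and 60.3 CPM and at 43.1, 25.1 and 23.6 CPM. Germ cell lists differed there as well: spermatocyte markers summed in KO to 120% of wild type and elongating spermatid markers to 74.3%, with 4744, 4409 and 1992 CPM in wild type and 2741, 2831 and 2488 CPM in KO. Red blood cell markers were at 28.9%, from sums of at most 1.22 CPM. Peritubular myoid markers were at 97.4%, 109% and 94.6%, and endothelial markers at 102%, 107% and 103% of wild type. The pathway lists stayed nearer to wild type, at 99.0%, 97.4% and 99.4% for luteinizing hormone signalling, 97.7%, 103% and 92.1% for cholesterol supply, 89.7%, 99.98% and 89.1% for redox partners, 106%, 89.0% and 87.1% for other steroid enzymes and 100.3%, 114% and 90.2% for transcription factors. Some sums of these pathway lists still did not overlap between the genotypes. Lower in KO were redox partners in pachytene and other steroid enzymes in round and condensing spermatids. Higher in KO were transcription factors in round spermatids. Whether the lower levels of the members in KO come from the number of Leydig cells carried into a fraction was not tested.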

How the data were processed

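RNA was measured in 21 libraries, grouped by the labelled cell type and genotype. Per the labels and the methods, the authors aligned reads to mm10 with STAR 2.7.11b, counted them with HTSeq over exons on the reverse strand without multiply aligned reads, and deposited raw counts for 24456 genes, neither normalized nor pooled. The 5 rows that name no gene held 34.6% to 57.7% of reads and were left out.

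Stages were compared with edgeR 4.0.16 (R 4.3.3): TMM normalization, filterByExpr by group and the quasi-likelihood test on all genes, adjusted by Benjamini-Hochberg and called at 0.05. Fits used the 9 libraries of 1 genotype, or 3 condensing and 2 spermatozoa wild type libraries. CPM are reads divided by the reads on genes of a library, times 1000000. Genotypes were compared as ratios of TMM-scaled means. Alternatives were DESeq2 1.42.0 (Wald test, and size factors), library size only, no filter, all 18 libraries in 1 fit, a replicate block, each replicate left out, merged similar libraries, and the sum without *Hsd3b1* and *Hsd3b6*.

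The members, lists and tests were chosen with earlier results of these data known. Named genes are the members, and for each list up to 3 genes per direction called in wild type round against pachytene and the 2 highest over 21 libraries, plus the 10 genes most like the members. Some genes that this rule names are not reported here. *H2afb1* was taken as the gene of H2A.L.2 from a RefSeq synonym, the other gene with that synonym being listed separately. The list symbol Cyb5 was matched to *Cyb5a*. Equal replicate numbers were not treated as pairs, since over 16314 genes in no pair of groups did all same-numbered libraries deviate together. Single pairs of libraries had r from -0.16 to 0.24. The summed member level, however, was highest in wild type replicate 3 and in KO replicate 1 in pachytene, round and condensing libraries alike. A shared preparation behind equal numbers was not tested for the members.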

Additional observations from a re-analysis of the deposited data

How the results depend on the processing

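In the 5 comparisons of stages, the count of members called kept within 7 to 8 under every alternative run. It moved from 7 to 8 in KO condensing against round spermatids without the filter and with all 18 libraries in 1 fit, and in spermatozoa against condensing without condensing WT replicate 2 or without spermatozoa WT replicate 2, where *Lhcgr* passed (adjusted p = 0.0485 and 0.0137). The last of these leaves 1 spermatozoa library, assumed to vary like the others. Of 454 values of single members under alternatives, 452 kept direction and side of the threshold, 2 newly passed it and 0 reversed. Leaving out a library nevertheless moved some log2 changes by over 1.5 times in fold. In spermatozoa against condensing, without replicate 1 or 2 of wild type spermatozoa, *Star* was -3.16 and -4.57, *Hsd3b1* -3.87 and -5.64, *Hsd17b3* -7.97 and -3.20, *Insl3* -10.95 and -3.89, and *Lhcgr* -0.39 and -6.43, and where the library that remains holds 0 reads the value is set by the prior count. *Lhcgr* without wild type round replicate 3 was -3.64 from pachytene to round and 4.50 from round to condensing. In KO round against pachytene, 5 members without pachytene KO replicate 1 were at -2.95 (*Cyp17a1*) to -1.96 (*Insl3*), and *Hsd3b1*, *Hsd3b6* and *Hsd17b3* without round KO replicate 1 at -3.77, -3.50 and -3.72, and at 5.04, 4.81 and 4.10 from round to condensing.

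With a replicate block the counts called were 8, 8, 7, 7 and 7, and the log2 ratios of the summed level of KO to wild type were -1.21 in pachytene, -0.71 in round and -0.84 in condensing spermatids. In 0 of 7 pairs of groups did every same-numbered pair of libraries correlate above 0.1. Leaving out each replicate gave -1.74 to -0.67 in pachytene, -0.91 to -0.54 in round and -1.03 to -0.67 in condensing spermatids. The fit of 18 libraries was not run for spermatozoa, and the merging of similar libraries applies to the wild type round comparisons alone. Depth limits the round and spermatozoa values of *Lhcgr* and *Hsd17b3*, which rest on at most 4 reads per library. It also limits those of *Hsd3b1*, with 1 to 7 reads in round and 1 to 3 in spermatozoa libraries. *Hsd3b6* had 0 to 5 reads in spermatozoa libraries.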
